A study of Ovis aries with 23 samples.

Results

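SHH (ENSOARG00000006942), which encodes the morphogen sonic hedgehog, and WIF1 (ENSOARG00000003121), which encodes Wnt inhibitory factor 1, are 2 of the 25197 genes counted in RNA-seq of the sheep pars tuberalis (PT), the melatonin-responsive part of the pituitary stalk. The 2 genes were taken as the morphogen signals that the study plots for this tissue. Both were picked there from genes listed as regulated, SHH with the libraries used here in view, so its change with photoperiod is not independent evidence. The files carry Ensembl identifiers without gene names, and the symbols come from the lists published with the study.

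All 23 samples are from male, neutered Scottish blackface sheep. The 5 SP samples are from animals on short photoperiods (SPs, 8 hr light and 16 hr dark) held for 12 weeks. The other 3 groups hold 6 samples each, taken after 1, 7, or 28 days of long photoperiods (LPs, 16 hr light and 8 hr dark) that followed the SPs. The labels do not say that each sample is a separate animal, so the tests measure the spread between samples.

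Total counts ranged from 307952 in LP day 1 sample 4 to 4413929, with a median of 3332320. The lowest level taken as detected, 3 counts, was 8.90 CPM (a gene's counts scaled to the TMM normalized size of the library) in LP day 1 sample 4 and at most 1.52 CPM elsewhere. All 7 genes listed as markers of PT thyrotrophs, the endocrine cells of this tissue, were found, and their summed level was 6734 to 15094 CPM. The 8 identified genes of the adjoining pars distalis, led by prolactin and growth hormone, summed to between 35061 and 272796 CPM, with group medians of 64506 to 177118 CPM. LP day 1 samples 3 and 4 differed by a chi-square of 1.14 per gene, against medians of 8.32 to 14.9 between samples of 1 group. The low depth of sample 4 goes with low values for its other pairs too, from 1.75 with sample 6 to 7.15 with sample 2. The 1.14 exceeds counting noise, but this does not settle whether samples 3 and 4 come from separate animals. They were kept as 2 samples and were summed as an alternative.

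Hedgehog ligands are cleaved and lipid-modified before release. They bind the receptor PTCH1, which lifts its block on SMO and lets GLI transcription factors act on their targets. In the embryo, SHH from the oral ectoderm and ventral forebrain patterns the pituitary primordium. WIF1 acts in the other family of signals: it is a secreted protein that binds Wnt ligands outside the cell and keeps them from their Frizzled receptors. In the sheep reference annotation, SHH lies between RBM33 and RNF32, and WIF1 between LEMD3 and TBC1D30.

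SHH expression was lowest on SPs and highest on LP day 7. Its rise over SPs passed the test on LP days 7 and 28, and the difference on LP day 1 did not. The 5 SP samples had 12.7, 9.48, 8.37, 8.75, and 17.8 CPM. They rest on 27 to 63 counts each. The SP mean was 11.4 ± 3.95 CPM (SD, n = 5).

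On LP day 1, the 6 samples ran from 18.3 to 62.3 CPM around a median of 38.8 CPM, with a mean of 39.7 ± 21.8 CPM (SD, n = 6). Of these, 3 were low and 3 were high, with no sample between 22.4 and 55.3 CPM. Samples 1, 2, and 6 had 22.4, 19.1, and 18.3 CPM, just above the SP samples. Samples 3, 4, and 5 had 55.3, 62.3, and 60.8 CPM, a level close to the lowest samples of LP day 7. Samples 3 and 4 are the pair with the lowest chi-square within any group, and sample 4 is the shallowest library. Its SHH value rests on 21 counts, with an exact 95% binomial interval of 38.6 to 95.2 CPM that covers counting error only. The coefficient of variation was 55% on LP day 1, the largest of the 4 groups.

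On LP day 7, SHH ran from 65.5 to 105 CPM with a median of 80.0 CPM, and the mean was 82.2 ± 16.4 CPM (SD, n = 6). The 6 samples held 219 to 414 SHH counts each. This group was the tightest of the 4, with 1.61-fold between its lowest and highest sample. On LP day 28, the samples ran from 22.3 to 55.8 CPM with a median of 41.6 CPM, and the mean was 40.8 ± 11.7 CPM (SD, n = 6). Every LP day 28 sample was above every SP sample and below every LP day 7 sample.

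**Figure D1:**
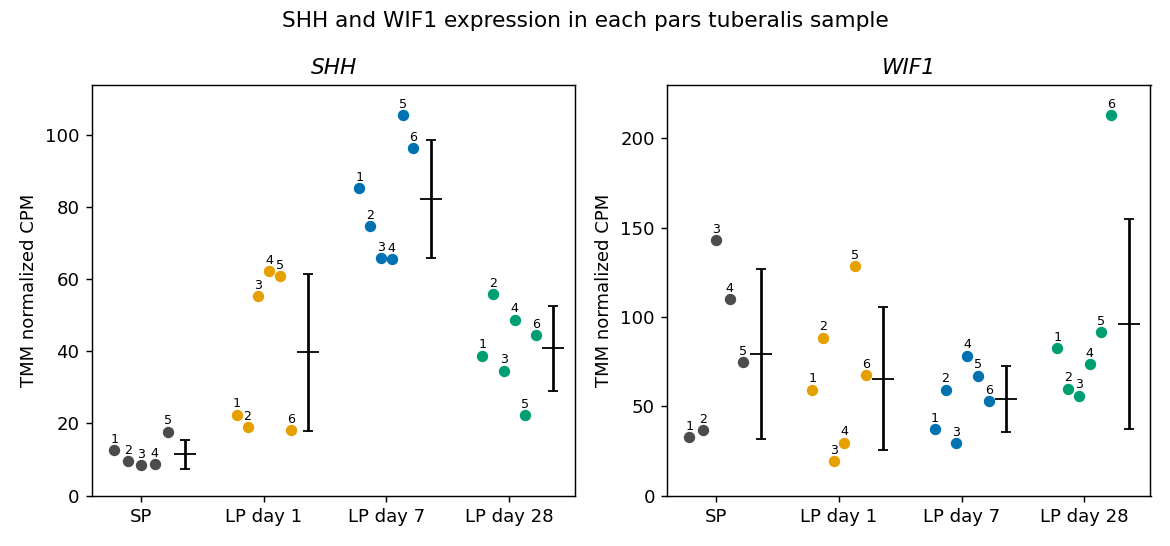
TMM normalized CPM of SHH (left) and WIF1 (right) in each of the 23 samples, by group. Each point is a sample and carries its number, and the bar beside each group is the mean with the SD. SHH lies at 8.37 to 17.8 CPM on SPs and at 65.5 to 105 CPM on LP day 7, whereas the WIF1 values of all 4 groups overlap and LP day 28 sample 6 stands above the rest at 213 CPM.

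The SP group was compared with each LP day to ask how SHH moved after the switch to LPs. Between SPs and LP day 7, SHH rose by 2.83 on the log2 scale (SE, the standard error, 0.20, 95% interval 2.40 to 3.26, Benjamini-Hochberg FDR 4.44e-06 from the quasi-likelihood test of edgeR), which is 7.12-fold. It ranked first by p among the 15030 genes tested, of which 0.193% were called higher at an FDR under 0.05 and 0.266% in either direction. A total of 12 genes had an absolute log2 fold change at least as large, SHH included. Among the genes tested in this comparison, 1.26% had every LP sample above every SP sample, as SHH did. In bulk samples, a change in the number of cells that express a gene and a change in the RNA per cell cannot be told apart.

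From SPs to LP day 28, SHH rose by 1.83 (SE 0.23, 95% interval 1.33 to 2.32, FDR 7.18e-04 by edgeR), which is 3.55-fold. It ranked 7 by p among 14929 genes, and 0.422% of these genes were called higher and 0.67% in either direction. For 1.11% of them, as for SHH, every LP day 28 sample exceeded every SP sample. Both comparisons share the same 5 SP samples.

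On LP day 1, SHH did not pass the threshold. Its log2 fold change was 1.71 (SE 0.35, 95% interval 0.96 to 2.45, FDR 0.638 by edgeR). By unadjusted p it ranked 3 of 14920 genes, at 1.47e-04, and the test called 0% of these genes in either direction, with 3.33% at an unadjusted p under 0.05. The exact test and DESeq2, in contrast, called SHH on LP day 1 with FDRs of 0.00910 and 0.00383, and these tests called at most 7 genes in all. The lowest LP day 1 sample stood at 18.3 CPM and the highest SP sample at 17.8 CPM. That separation, seen for 0.0871% of the genes tested, depends on the scaling. With library size alone, LP day 1 ran from 16.6 CPM and SPs up to 19.5 CPM, and the groups overlapped.

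Within LPs, the log2 fold change of SHH between LP day 1 and LP day 7 was 1.13 (SE 0.28, 95% interval 0.53 to 1.72, FDR 0.484 by edgeR). This difference did not pass the threshold, in a comparison in which 0.0201% of the genes were called. The lowest LP day 7 sample, at 65.5 CPM, was above the highest LP day 1 sample, at 62.3 CPM, as was the case for 0.134% of the genes, but with library size alone the groups overlapped.

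From LP day 7 to LP day 28, the SHH log2 fold change was -0.998 (SE 0.17, 95% interval -1.36 to -0.63, FDR 0.0633 by edgeR). SHH ranked 4 of 14890 genes by p, and 0.00672% of the genes, a single gene, were called. The groups did not overlap under either scaling, and 0.222% of the genes were separated in this direction. The difference passed in 7 of 12 other settings. Without LP day 7 replicate 3 or LP day 28 replicate 2 the edgeR FDR was 0.0377 or 0.0374.

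LP day 28 and LP day 1 had nearly equal means of 40.8 and 39.7 CPM. Their log2 difference was 0.13 (SE 0.29, 95% interval -0.48 to 0.75, FDR 0.949 by edgeR), with 0.216% of 14820 genes called. In ascending order of the mean, SHH thus ran SP, LP day 1, LP day 28, and LP day 7. The neighbours LP day 1 and LP day 28 overlapped, and no neighbouring pair in this order passed the threshold.

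**Figure D2:**
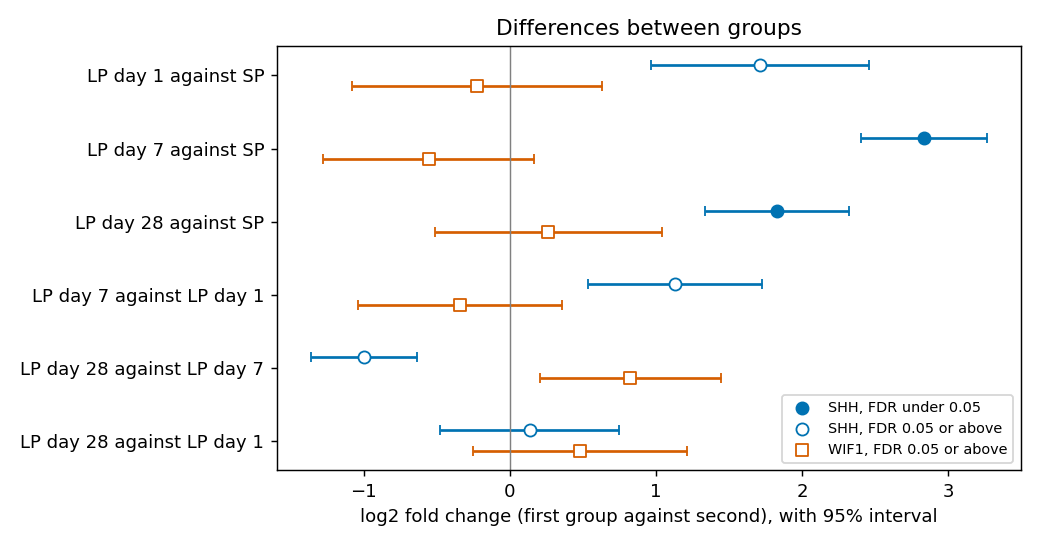
Log2 fold changes of SHH (blue circles) and WIF1 (orange squares) in the 6 comparisons, first group against second, with 95% intervals from edgeR's quasi-likelihood fit. Filled symbols passed an FDR of 0.05: these are SHH on LP day 7 (2.83) and LP day 28 (1.83) against SPs, and no WIF1 value passed.

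WIF1 varied widely between the samples of each group, and none of its differences between groups passed the test. The 5 SP samples had 32.8, 36.6, 143, 110, and 74.8 CPM, with a mean of 79.5 ± 47.5 CPM (SD, n = 5). Samples 1 and 2 were low and samples 3 and 4 high. The SP samples with the most WIF1, samples 3 and 4, were also those with the least SHH.

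LP day 1 samples ran from 19.4 to 129 CPM with a median of 63.4 CPM, and the mean was 65.5 ± 39.9 CPM (SD, n = 6). The lowest values were those of samples 3 and 4, at 19.4 and 29.7 CPM, the latter from 10 counts with an exact 95% interval of 14.2 to 54.6 CPM. On LP day 7, the range was 29.5 to 78.4 CPM with a median of 56.1 CPM, and the mean was 54.1 ± 18.4 CPM (SD, n = 6). LP day 7 was the lowest and narrowest group, and all its values lay within the range of the LP day 1 samples.

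On LP day 28, WIF1 ran from 56.0 to 213 CPM with a median of 78.1 CPM, and the mean was 96.1 ± 58.7 CPM (SD, n = 6). Sample 6 held the highest value of all 23, whereas the other 5 stayed at or under 91.5 CPM. The coefficients of variation were 59.8% on SPs, 60.9% on LP day 1, 34% on LP day 7, and 61.1% on LP day 28. The coefficient of biological variation that edgeR estimated for WIF1 stood between percentiles 90.0 and 94.6 of the genes tested in the 6 comparisons.

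The WIF1 groups overlapped in all 6 comparisons. Against SPs, the log2 fold change was -0.22 on LP day 1 (95% interval -1.08 to 0.63, FDR 1.00 by edgeR). On LP day 7 it was -0.56 (95% interval -1.28 to 0.17, FDR 0.481 by edgeR), and on LP day 28 it was 0.26 (95% interval -0.51 to 1.04, FDR 0.802 by edgeR). The intervals reach below -1 on LP days 1 and 7 and above 1 on LP day 28, so differences of that size on the log2 scale were within the error of these samples.

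The largest WIF1 difference was that between LP days 7 and 28. It was 0.82 (SE 0.29, 95% interval 0.20 to 1.44), with an unadjusted p of 0.0121 and an FDR of 0.559 by edgeR. Without LP day 28 replicate 6 it was 0.42. LP day 7 differed from LP day 1 by -0.34 (95% interval -1.04 to 0.35, FDR 0.919 by edgeR), and LP day 28 from LP day 1 by 0.48 (95% interval -0.25 to 1.21, FDR 0.779 by edgeR). In ascending order of the mean, WIF1 ran LP day 7, LP day 1, SP, and LP day 28, and no neighbours in that order differed beyond their spread. The place of LP day 28 rests on sample 6, without which its mean was 72.7 ± 14.9 CPM (SD, n = 5), below that of SPs.

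Set side by side, the point estimates of SHH and WIF1 had opposite signs in the LP day 1 and LP day 7 comparisons with SPs, and both were positive on LP day 28. For WIF1 the sign turned on LP day 1 without SP replicate 3 (0.11) and on LP day 28 without LP day 28 replicate 6 (-0.13). Of the 2 genes only SHH passed the threshold, and the difference between the genes was not tested. Pearson's r between the log2 values of the genes was -0.34 over the 5 SP samples, -0.38 on LP day 1, 0.20 on LP day 7, and -0.04 on LP day 28 (n = 6 each). Spearman's rho was -0.7, -0.26, -0.03, and -0.2 in the same order. These correlations rest on few samples and are given as a description.

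The other hedgehog components could not be followed, since 0 of 26 further pathway symbols, PTCH1, SMO, and the GLI factors among them, were paired with an identifier in the sources used here. Of 73 further Wnt pathway symbols, 7 were paired: the secreted Frizzled-related inhibitors SFRP2, SFRP4, and SFRP5, the ligands WNT4 and WNT6, the Wnt cargo receptor WLS, and the Wnt receptor ROR2. They were paired because the study lists them as regulated somewhere in its experiments, so they are not an independent sample of the pathway. In each of the 3 comparisons with SPs, 0 of 7 passed the FDR threshold in either direction. Of all genes tested, 0%, 0.266%, and 0.67% were called on LP days 1, 7, and 28. Within LPs, 0 of the 7 or 6 tested passed, beside 0.00672% to 0.216% of all genes. At shares this low, 0 calls say little about these 7 Wnt genes. At an unadjusted p under 0.05 there were 1, 0, and 3 of them on LP days 1, 7, and 28, beside 3.33%, 14.4%, and 13.8% of all genes tested. Their median log2 fold change was -0.02, -0.19, and -0.10 at these days, beside 0.0019, -0.0071, and -0.0066 over all genes tested.

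SFRP4, which like WIF1 is a secreted Wnt antagonist, had 33.6, 18.3, 26.0, 23, and 31.3 CPM in the SP samples. It ran from 23.7 to 86.2 CPM on LP day 1 with a median of 37.7 CPM, from 16.8 to 40.4 CPM on LP day 7 with a median of 34.6 CPM, and from 21.7 to 58.1 CPM on LP day 28 with a median of 40.4 CPM. All groups overlapped. Its log2 fold change was 0.77 on LP day 1 (SE 0.26, FDR 1.00 by edgeR) and 0.58 on LP day 28 (SE 0.24, FDR 0.280 by edgeR).

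SFRP5 had means of 11.8 ± 5.64 CPM on SPs (SD, n = 5) and 7.51 ± 1.62 CPM on LP day 28 (SD, n = 6), a log2 fold change of -0.65 (FDR 0.285 by edgeR). SFRP2 stayed between means of 7.01 and 10.1 CPM in the 4 groups. WLS, which carries Wnt proteins to the cell surface, was the steadiest of the list, with group means from 95.3 to 111 CPM. ROR2 lay between 9.17 and 13 CPM and WNT4 between 3.22 and 5.93 CPM. WNT6 was near the limit of detection, with 0 to 15 counts per sample. Its log2 fold change on LP day 28 against SPs was -1.27 (95% interval -2.31 to -0.23, FDR 0.258 by edgeR).

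Of 29 symbols for factors of pituitary development, 5 were paired (PITX1, SIX2, SIX6, BMP3, and FST), and 0 passed the threshold in any of the 6 comparisons, in which 0% to 0.67% of all genes tested were called. SIX2, a homeobox transcription factor, came closest. It had 334, 302, 189, 247, and 355 CPM on SPs, and ran from 292 to 579 CPM with a median of 495 CPM on LP day 28. The groups overlapped through LP day 28 sample 4 alone. The log2 fold change was 0.72 (SE 0.17, FDR 0.0615 by edgeR). The alternatives were recorded for this list only as a number of members called, not for SIX2 itself. PITX1, a homeobox factor of the anterior pituitary, had group means from 97.5 to 129 CPM, and SIX6 from 59.4 to 83.8 CPM.

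The genes whose pattern was most like that of SHH were then sought among 869 genes with a symbol and a mean of at least 5 CPM, by Pearson's r of log2(CPM + 1) over the 23 samples. They were SLCO1C1, a transporter of thyroid hormone and organic anions (r = 0.885), DCT, the melanin-synthesis enzyme dopachrome tautomerase (0.882), PTPN5, a tyrosine phosphatase (0.876), CNTN2, a contactin of the cell adhesion family (0.812), and GLUL, glutamine synthetase (0.806). They were also ranks 1 to 5 among all 12221 genes at this level, including those with no symbol. The median r over the 869 genes with a symbol was 0.063. The samples share their 4 groups, and after the group means were taken out, r was lower, at 0.52, 0.56, 0.60, 0.32, and 0.59 in the same order.

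SLCO1C1 had 23.7 to 39.2 CPM on SPs, 45.6 to 136 CPM on LP day 1, 96.9 to 180 CPM on LP day 7, and 84.8 to 126 CPM on LP day 28. Like SHH it peaked on LP day 7, but its LP day 28 samples stayed closer to those of LP day 7. LP day 1 sample 5 had the most SLCO1C1 of its group, at 136 CPM, whereas samples 3 and 4 had 59.6 and 62.3 CPM.

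DCT moved furthest, with means of 11.1 ± 8.07 CPM on SPs (SD, n = 5), 28.4 ± 15 CPM on LP day 1, 236 ± 61.8 CPM on LP day 7, and 75.4 ± 22.8 CPM on LP day 28 (SD, n = 6 each). All 5 of these genes were called higher on LP day 7 than on SPs, with log2 fold changes of 2.21 (SLCO1C1), 4.37 (DCT), 1.91 (PTPN5), 1.23 (CNTN2), and 0.98 (GLUL) and FDRs of at most 0.0314 by edgeR. They were chosen for likeness to SHH in the same samples, so these calls are a description. On LP day 28, SLCO1C1, DCT, and CNTN2 were called (log2 fold changes 1.80, 2.72, and 0.97), and PTPN5 (FDR 0.0777) and GLUL (FDR 0.182) were not by edgeR.

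**Figure D3:**
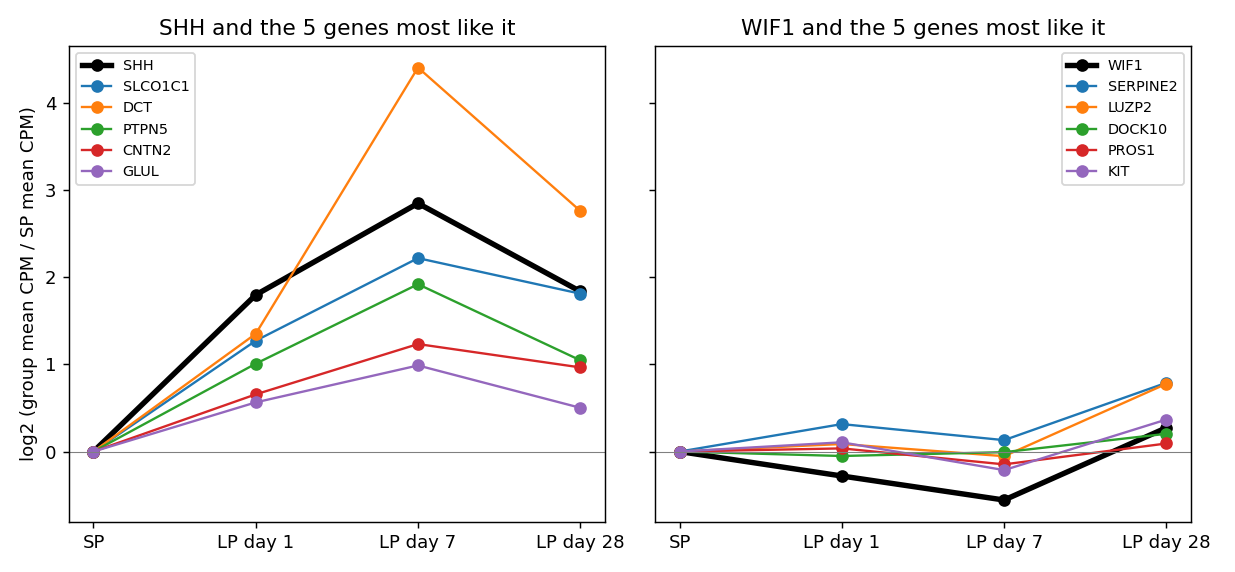
Log2 of the group mean CPM over the SP mean CPM for SHH (left, black) and WIF1 (right, black) and the 5 named genes whose sample pattern was most like each. The SHH-like genes all have their highest mean on LP day 7, with DCT reaching 236 CPM from 11.1 CPM on SPs. Among the WIF1-like genes, SERPINE2 has 186 CPM on SPs and 232, 204, and 322 CPM on LP days 1, 7, and 28, and PROS1 moves least.

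For WIF1, the most similar genes were SERPINE2, a secreted inhibitor of serine proteases (r = 0.772), LUZP2, a leucine zipper protein (0.686), DOCK10 (0.608), PROS1, the vitamin K-dependent protein S (0.572), and KIT, a receptor tyrosine kinase (0.556). Their ranks among all 12221 genes were 1, 5, 20, 36, and 45. Without the group means, r was close to these values, at 0.80, 0.66, 0.55, 0.55, and 0.52. Ranked by Spearman's correlation instead, 3 of these 5 genes and 4 of the 5 most like SHH were shared with the named sets.

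SERPINE2 had 141 to 219 CPM on SPs, 125 to 422 CPM on LP day 1, 126 to 315 CPM on LP day 7, and 228 to 454 CPM on LP day 28. It was lowest on LP day 1 in samples 3 and 4 and highest in sample 5, as WIF1 was, and on LP day 28 it was highest in sample 6. It was called higher on LP day 28 than on SPs (log2 fold change 0.78, SE 0.16, FDR 0.0308 by edgeR), a comparison in which WIF1 was not. LUZP2 had means of 21.4 CPM on SPs and 36.7 CPM on LP day 28 and did not pass (log2 fold change 0.78, FDR 0.164 by edgeR). Its groups did not overlap, as was the case for 1.11% of the genes in this direction. SERPINE2 and LUZP2 were chosen for likeness to WIF1 in the same samples, so these values are a description.

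**Figure D4:**
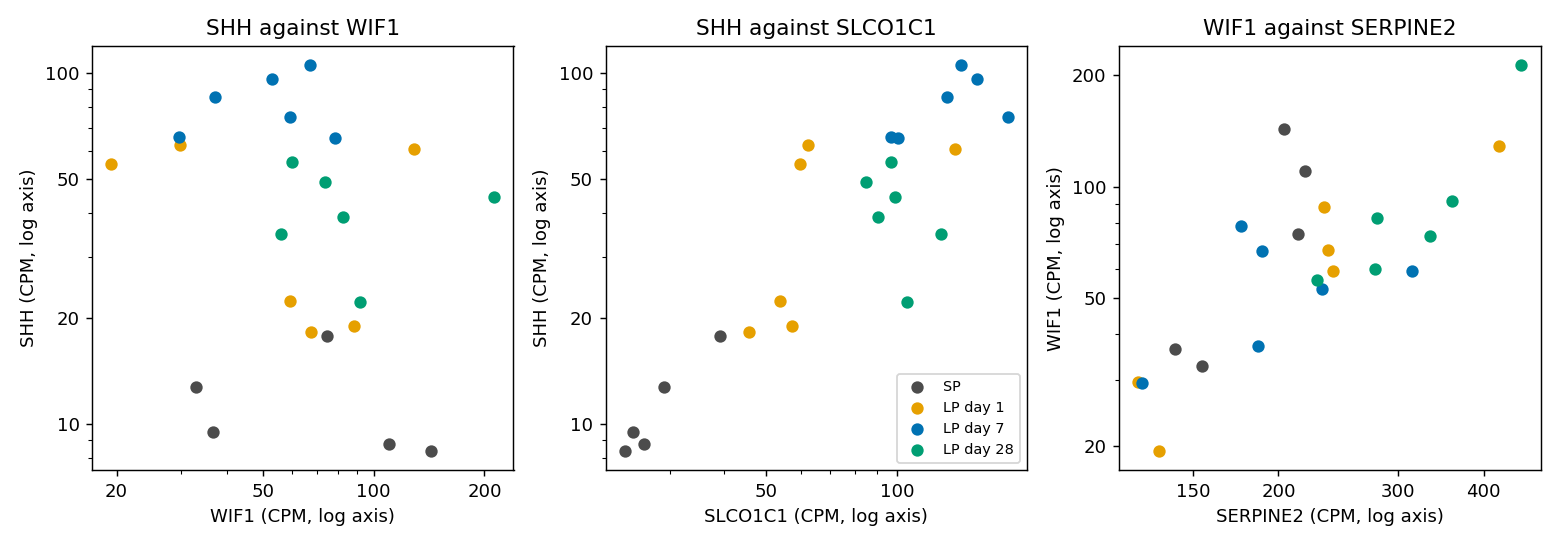
SHH against WIF1 (left), SHH against SLCO1C1 (middle), and WIF1 against SERPINE2 (right) in the 23 samples, in CPM on log axes and coloured by group. The LP day 7 samples lie above the SP samples for SHH, while their WIF1 values overlap, the SP samples are lowest and the LP day 7 samples high for both SHH and SLCO1C1, and samples with more SERPINE2 tend to have more WIF1, with LP day 28 sample 6 at the top at 213 and 454 CPM.

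The summed markers of other cell types were set beside both genes, since PT samples can carry adjoining tissue. Within groups, Pearson's r of SHH over the 23 samples was 0.01 with the PT thyrotroph markers, -0.39 with the pars distalis markers, 0.21 with the 2 of 6 folliculostellate markers found, 0.50 with the 3 of 10 hypothalamic markers (DIO2, AGRP, and NPY), 0.16 with the 2 of 6 markers of astrocytes and oligodendrocytes (GFAP and MBP), and -0.19 with the single blood marker, PTPRC. For WIF1 the same values were -0.51, 0.31, 0.31, -0.06, 0.33, and 0.43. Most of the PT thyrotroph sum was CGA, which encodes the common hormone subunit and had group means of 6970 to 8955 CPM. The study also describes thyrotrophs in the pars distalis, and a role of CHGA in gonadotrophs and somatotrophs there. On LP day 1, sample 5 had the lowest CGA, LHB, and FSHB of its group, at 3886, 1550, and 146 CPM. The thyrotroph sum thus does not measure PT thyrotrophs alone, and the part of each cell type in it was not tested. The pars distalis sum had medians of 125226 CPM on SPs, 64506 CPM on LP day 1, 95689 CPM on LP day 7, and 177118 CPM on LP day 28. Its largest member, the prolactin gene PRL, had means of 72142 CPM on SPs and 153866 CPM on LP day 28. In the same groups, the growth hormone gene GH1 had 19488 and 18917 CPM, and POMC 4065 and 3841 CPM. LHB had 4680 and 3569 CPM and FSHB 583 and 346 CPM. POU1F1 (121 and 172 CPM) and TBX19 (26.7 and 36.1 CPM) moved like PRL. GNRHR had 61.3 and 61.5 CPM. None of these differences passed the threshold (FDR 0.158 or above by edgeR). On LP day 1, PRL, GH1, and POU1F1 were all highest in sample 2, and LHB and FSHB in sample 3. The pars distalis sum mainly follows PRL, and how far it tracks the amount of pars distalis tissue was not tested. With GH1 as a covariate, SHH still passed on LP days 7 and 28 against SPs. GH1 itself was not called in these 2 comparisons (log2 fold changes 0.33 and -0.05, FDRs 0.730 and 0.967 by edgeR), so this fit does not test the part of adjoining tissue. Between SPs and LP day 7, the median sum went from 11955 to 9308 CPM for the PT thyrotroph markers, of which CHGA had means of 3384 and 1534 CPM. It went from 249 to 231 CPM for the folliculostellate, from 112 to 78.8 CPM for the hypothalamic, from 263 to 380 CPM for the astrocyte and oligodendrocyte markers, and from 44.5 to 25.2 CPM for the blood marker. Within the hypothalamic list, DIO2 had its highest group mean on LP day 7, at 19.4 CPM, and AGRP and NPY their lowest. By immunohistochemistry, the study places SHH in putative PT thyrotrophs. The part of the other cell types in the RNA levels of SHH and WIF1 was not tested here.

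The clock gene CRY1 was low in some samples of every group and high in the others, from 16.9 to 406 CPM. Its Pearson's r within groups, over the 23 samples, was 0.44 with SHH and 0.09 with WIF1. On LP day 1, CRY1 was low in samples 1 and 6, at 28.3 and 34.5 CPM, and both were among the samples with low SHH. Sample 2 also had low SHH, but its CRY1 was high, as it was in the samples with high SHH. Whether the LP day 1 split in SHH goes with CRY1 was not tested. On LP days 7 and 28, the samples with odd numbers were low and those with even numbers high. SHH on LP day 28 was 22.3 to 38.8 CPM in the odd-numbered and 44.4 to 55.8 CPM in the even-numbered samples. Even-numbered samples were all higher for 6.86% of 14890 genes on that day, SHH among them. On LP day 7 the odd- and even-numbered samples overlapped for SHH. Over both days, even-numbered samples differed from odd-numbered ones by 0.22 for SHH (SE 0.17, FDR 0.737) and by 0.55 for WIF1 (SE 0.27, FDR 0.507 by edgeR), and 1.02% of the genes were called. With CRY1, or the odd or even number, as a covariate, the SHH calls on LP days 7 and 28 against SPs held. The labels do not name the odd or even numbers as a batch.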

How the data were processed

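RNA-seq of the PT covers 23 samples in 4 groups, set by the sample labels. The authors deposited whole-number counts of reads per Ensembl sheep gene. Their processing notes name Bowtie, HTSeq, and Oar_v3.1, whereas the file headers have the form of another counter, and the counting program is unclear. Reads shared by overlapping genes may be split differently by either program.

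Counts of the groups compared were TMM normalized. Genes were tested where the number of samples above 1 CPM reached the size of the smaller group, with the quasi-likelihood test of edgeR 4.0.16 (R 4.3.3) at a Benjamini-Hochberg FDR under 0.05 over all genes. CPM values are TMM normalized over all 23 samples. Standard errors are the log2 fold change over the root of F. Alternatives were DESeq2 1.42.0, limma 3.58.1 with voom, edgeR's exact test, other scalings, no filter, robust estimation, all groups in a single fit, a replicate block, covariates (GH1, CRY1, odd or even number), SP samples 2, 3, and 5 alone, LP day 1 samples 3 and 4 summed, and each sample left out.

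Symbols came from the study's published gene lists, which pair 1259 identifiers, and 29 symbols have more than 1. Columns of the study's own comparisons in those lists were not used. The rule for named genes takes SHH, WIF1, list members that pass the threshold or answer most directly to hedgehog or Wnt signals, and the 5 genes most correlated with each of the 2. WLS, ROR2, the pituitary development genes, CRY1, GH1, and the marker genes are outside it and were named after their values were seen. The members and lists were chosen with earlier results of these data known. Gene order is from RefSeq (ARS-UI_Ramb_v3.0). Its coordinates, and sequences, are not used here. The samples of longer photoperiod exposure were not analysed here.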

Additional observations from a re-analysis of the deposited data

Results flagged for a closer look

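WIF1 stood at 213 CPM in LP day 28 sample 6, far from the other 5 samples of its group, which ran from 56.0 to 91.5 CPM. The gap to the nearest sample was 0.774 of the whole range, above Dixon's critical value of 0.625 for 6 samples. A total of 8 groups were examined for SHH and WIF1, 1 was marked, and chance marks about 1 in 20. The value rests on 546 counts. SERPINE2, at 454 CPM, and KIT, at 20.3 CPM, were also highest in this sample within LP day 28, both from the 5 genes chosen for likeness to WIF1 over these same samples. Of those 5, LUZP2 was highest in sample 4 and DOCK10 in sample 5, and PROS1 in sample 6. In sample 6 the PT thyrotroph markers summed to 11268 CPM and the pars distalis markers to 180687 CPM, both within the range of the group.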

How the results depend on the processing

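SHH at LP days 7 and 28 against SPs passed in all 13 alternatives each, at log2 fold changes of 2.77 to 3.02 and 1.74 to 1.91, and with each sample left out, at 2.74 to 3.04 and 1.71 to 2.04. SP samples 2, 3, and 5 alone gave 2.77 and 1.77. The rise at LP day 1 passed with DESeq2 (1.75, FDR 0.00383) and the exact test (1.75, FDR 0.00910) and in none of the other 12 alternatives, and ran from 1.49 to 1.93 with samples left out. The difference of LP day 28 from LP day 7 passed with library size scaling (-1.12, FDR 0.0411), DESeq2 (-0.999, FDR 9.63e-05), the exact test (-1.0, FDR 1.46e-04), limma voom (-0.99, FDR 0.0424), no filter (-0.998, FDR 0.0278), odd or even number (-1.02, FDR 0.0355), and CRY1 (-1.0, FDR 0.0383), with -1.10 to -0.89 for samples left out. The cause was not tested. SHH at LP day 7 against LP day 1 passed in 0 of 13 and ran from 0.97 to 1.37 with samples left out. SHH at LP day 28 against LP day 1 ran from -0.02 to 0.37, and changed sign without LP day 1 replicate 1 (-0.0020), 2 (-0.0229), or 6 (-0.0112).

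WIF1 passed in no alternative. Its difference changed sign at LP day 1 against SPs without SP replicate 3 (0.11, range -0.53 to 0.11) and at LP day 28 against SPs without LP day 28 replicate 6 (-0.13, range -0.13 to 0.59). Left-out ranges were -0.76 to -0.22 at LP day 7 against SPs, -0.55 to -0.03 at LP day 7 against LP day 1, 0.42 to 0.96 at LP day 28 against LP day 7, and 0.09 to 0.78 at LP day 28 against LP day 1.

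With a replicate block for the sample number, SHH was 1.78 (FDR 0.257), 2.81 (1.68e-06), and 1.79 (0.0221) at LP days 1, 7, and 28 against SPs by edgeR's test, and WIF1 was -0.14, -0.41, and 0.05. The block changed no call of SHH or WIF1. Samples share only a number: the mean correlation of same-numbered samples' deviations was -0.04 to 0.08 per comparison, and at most 3 samples correlated best with their own number. Genes called at LP day 7 against SPs went from 40 to 178 and at LP day 28 from 100 to 41 with the block, and DESeq2 called 357 and 346. From LP day 7 to LP day 28 a single gene was called, and DESeq2 called 36.

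Depth limits LP day 1 sample 4, with 21 SHH and 10 WIF1 counts, and these limits cover counting error only.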
